A study of Rattus norvegicus with 6 samples.

Results

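The nuclear-encoded subunits of the mitochondrial respiratory chain were examined in neonatal rat ventricular cardiomyocytes (NRVCs) cultured with or without C3a. The set held 42 genes chosen by name, 20 for complex I, 4 for complex II, 6 for complex III, 11 for complex IV and the mobile carrier cytochrome c. A probe was matched by accession for 40 of the 42 genes, of 16575 named genes on the array. Ndufa8 and Ndufs6 had no matched probe and were not analysed here. Where several probes matched a gene, the brightest over the 6 arrays stood for it.

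The respiratory chain lies in the inner mitochondrial membrane and passes electrons from NADH and succinate to oxygen. Complex I oxidises NADH and complex II oxidises succinate, and both hand electrons to ubiquinone. Complex III passes them on to cytochrome c, and complex IV, cytochrome c oxidase, reduces oxygen to water. Proton pumping by complexes I, III and IV drives ATP synthase, the main source of ATP for contraction in heart muscle. Most subunits are encoded in the nucleus and are imported into the mitochondrion, where they join the few subunits made from mitochondrial DNA.

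NRVCs were isolated from the ventricles of Sprague-Dawley rats aged 1 to 2 days, with hearts from 8 to 10 rats combined in a preparation, and were kept in serum-free medium. The study's methods describe a short starvation in low serum before stimulation. The control samples (n = 3) received control medium. The C3a samples (n = 3) received recombinant C3a, the fragment released when complement C3 is cleaved, at 0.5 µg/ml for 12 h. Nothing in the sample records says whether the samples of a group came from separate cultures or preparations, so p-values measure the spread between these samples, which may be technical.

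Each sample was hybridised to its own Agilent 1-colour array. Signals are given as log2 of the background-corrected intensity minus the 75th percentile of all probes on the array, and a difference is the mean of the C3a arrays minus the mean of the control arrays on this log2 scale. All 6 arrays lay on 1 slide, with the controls in one column and the C3a arrays in the other, so that position and treatment cannot be told apart. The local background was brighter on control 1, with a median of 47 units where the others had 23 or 24. On control 1, 38.6% of probes were well above background, where the others had 53.7% to 57.3%. Control 2 had the highest 75th percentile, 367 intensity units, against 207 to 288 on the others. The number of arrays limits the precision. In RNA from whole cultures, a smaller number of cardiomyocytes and less RNA per cardiomyocyte cannot be told apart.

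Of 19 cardiomyocyte marker genes, 18 had a matched probe and all 18 were kept for the test, with a median signal of 8.51. The sum of their linear signals, relative to the 75th percentile, was 6613 to 8519 in the controls and 8197 to 9288 with C3a, so the groups overlapped. Of the markers of other cells, 9 of 10 fibroblast, 6 of 8 endothelial, 4 of 9 macrophage and 5 of 5 smooth muscle markers were kept, with median signals of -1.32, 0.27, -1.57 and 0.87. Their summed signals were 97.6 to 111 in the controls and 96.5 to 113 with C3a for fibroblast markers, 33.6 to 46.2 and 42.5 to 53.8 for endothelial markers, 5.66 to 7.04 and 5.61 to 6.13 for macrophage markers, and 33.4 to 38.8 and 34.7 to 37.0 for smooth muscle markers. The macrophage markers C1qa, Cd163 and Mrc1 were not well above background on any array. The part of other cells in the results below was not tested.

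Transcription of many respiratory chain genes is known to involve the factors NRF-1, GABP (also called NRF-2), YY1 and CREB. Promoter sequences, from 250 bases before to 50 bases after the gene start, were found in RefSeq (GRCr8) for 36 of the 42 genes. No entry was matched for Ndufa8, Ndufb9, Uqcrb, Cyc1, Cox6a1 and Cox6c. Both strands were searched for 4 core motifs. The NRF-1 core, GCGCA and GCGC with any base between them, was found in 4 of the 36 promoters, 11.1%, against 4.25% of the 33469 promoters in the table. CCGGAAG (GABP) was found in 11 of 36, 30.6%, against 8.75%, and AAGATGG (YY1) in 11 of 36, 30.6%, against 7.01%. TGACGTCA (CREB), which reads the same on both strands, was found in 3 of 36, 8.33%, against 1.83%. At least 1 of the 4 motifs was present in 22 of 36 promoters, 61.1%, against 19.4%. The promoters of the set also held more CpG dinucleotides, with a median of 20 against 7 in a promoter, and a median GC content of 58.2% against 51.7%. These shares are a description of the letters, were not tested and were not corrected for base composition. The 33469 promoters were not limited to genes detected on the arrays.

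The 250 bases before the gene start of 4 genes are shown because together they hold each of the 4 motifs and represent complexes I, II, III and IV. Capitals mark the motifs, written as they read on the strand of the gene, so that CTTCCGG is the GABP core and CCATCTT the YY1 core on the opposite strand. The regions in GRCr8 are chr4:53971236-53971485 on the minus strand for Ndufa5, chr1:30764303-30764552 on the plus strand for Sdha, chr1:184598990-184599239 on the plus strand for Uqcrc2 and chr1:213833624-213833873 on the minus strand for Cox8a.
Ndufa5: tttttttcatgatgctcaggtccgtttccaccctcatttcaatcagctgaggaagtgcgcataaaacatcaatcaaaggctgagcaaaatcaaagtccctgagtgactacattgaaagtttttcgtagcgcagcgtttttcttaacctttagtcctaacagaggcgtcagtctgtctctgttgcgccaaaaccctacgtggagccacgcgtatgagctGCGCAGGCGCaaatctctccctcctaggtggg
Sdha: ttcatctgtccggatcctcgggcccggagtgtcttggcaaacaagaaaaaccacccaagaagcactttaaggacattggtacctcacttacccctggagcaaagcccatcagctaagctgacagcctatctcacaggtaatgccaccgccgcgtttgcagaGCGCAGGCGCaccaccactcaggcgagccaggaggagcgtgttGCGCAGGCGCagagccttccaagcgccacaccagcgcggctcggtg
Uqcrc2: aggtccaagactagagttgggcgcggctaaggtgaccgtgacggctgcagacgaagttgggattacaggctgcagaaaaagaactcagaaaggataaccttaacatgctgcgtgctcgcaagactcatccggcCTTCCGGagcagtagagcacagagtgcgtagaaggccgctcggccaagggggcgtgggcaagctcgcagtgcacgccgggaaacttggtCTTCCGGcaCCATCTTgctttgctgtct
Cox8a: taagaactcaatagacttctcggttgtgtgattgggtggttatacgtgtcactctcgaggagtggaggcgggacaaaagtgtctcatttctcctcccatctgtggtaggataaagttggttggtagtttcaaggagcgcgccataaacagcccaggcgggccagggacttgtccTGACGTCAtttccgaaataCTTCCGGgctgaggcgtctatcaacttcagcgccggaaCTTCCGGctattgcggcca
The Ndufa5 region held the NRF-1 core and the Sdha region held it in more than one place. The Uqcrc2 region held the GABP core and, close to the start, the YY1 core. The Cox8a region held the CREB core and the GABP core. Between C3a and control, none of the 4 genes passed the test described below, and the difference was 0.26 for Ndufa5, -0.023 for Sdha, -0.11 for Uqcrc2 and 0.23 for Cox8a.

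All 40 matched genes were kept for the test, since each was detected above background on every array of the control group, the C3a group or both, as were 10390 genes in all. For 39 of the 40 this held on all 6 arrays. Probe brightness depends on the probe as well as on the transcript, so that signals here describe the probes and not which transcript is more abundant. The median signal of the 40 genes was 7.47, and 36 of the 40 were among the brightest 10% of the 10390 genes. By complex, the median signal was 6.92 for complex I (18 genes), 6.18 for complex II, 6.97 for complex III, 6.39 for cytochrome c and 9.03 for complex IV.

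None of the 40 genes differed between C3a and control past the threshold. With limma, 0 of 40 passed an adjusted p of 0.05, where 0% of the 10390 genes did, and adjusted p lay between 0.742 and 0.972. At an unadjusted p under 0.05, the count was again 0 of 40, where 5.35% of all genes passed, 2.93% higher and 2.43% lower. These were 304 genes higher and 252 lower over the whole array, which became 9 and 1115 on unscaled arrays, 2 and 667 when scaled to the spike-in probes, and 236 and 330 with the percentile over probes detected on all arrays. The methods' test, which does not share the spread across probes, gave 0 probes of the whole array after adjustment. Differences ranged from -0.25 for Ndufs4 to 0.34 for Cox6c, with standard errors of 0.096 to 0.26. In simulated data of the same size (23438 probes), a log2 change of 0.5 was called for 3 of 50 probes. A change of 1 was called for 32 of 50 and a change of -1 for 25 of 50. All differences of the 40 genes were smaller than 0.5, a size rarely called there with 3 arrays in a group. The simulated noise was independent between probes, without deviations shared by the probes of an array, and smaller changes were not simulated.

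Most differences lay above 0. The mean with C3a was above the control mean for 34 of 40 genes, against 60.7% of all genes with a kept probe. The median difference was 0.17, against 0.036 over all genes. The direction depended on the scaling. After quantile normalization the median was -0.019, with 18 of 40 genes above 0. Without normalization between arrays it was -0.16, with 1 of 40 above 0, where the median of all kept probes was -0.28. Scaled to the E1A spike-in probes, it was -0.30, with 0 of 40 above 0, where the median of all kept probes was -0.42. These scalings add 1 constant to every probe of an array, so that all genes shift alike and the gap between the 40 genes and the median of all kept probes, 0.12, cannot change. Quantile normalization can change it, and there the 40 genes lay 0.041 below that median.

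**Figure D1:**
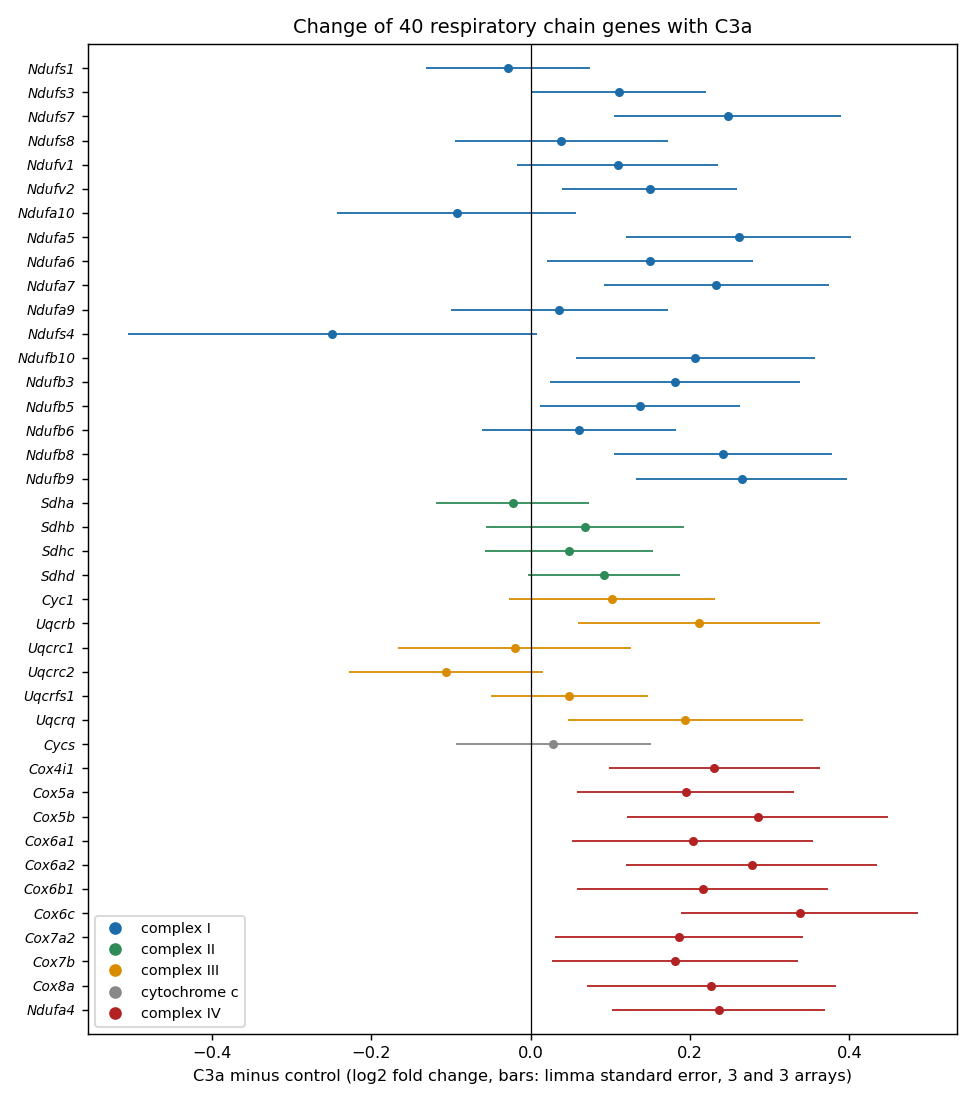
Difference between C3a and control for each of 40 respiratory chain genes on the log2 scale, with the limma standard error as bars (3 control and 3 C3a arrays) and colours for the complexes. Of the 40 points, 34 lie above 0, all 11 of complex IV among them, and no gene passed an unadjusted p of 0.05. The scale is relative to the 75th percentile of each array, and the direction of the group changed with other scalings.

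Complex I is the entry point for electrons from NADH. Its core subunits carry the flavin and the iron-sulfur clusters. Signals over the 6 arrays ran from 7.01 to 7.43 for Ndufv1, which binds the flavin that accepts electrons from NADH, and from 7.28 to 7.66 for Ndufv2, its iron-sulfur partner. They ran from 4.95 to 5.17 for Ndufs1, the largest core subunit, from 6.22 to 6.54 for Ndufs3, in the peripheral arm, and from 3.99 to 4.39 for Ndufs8, which carries iron-sulfur clusters on the path to ubiquinone. Ndufs7, which holds the last cluster before ubiquinone, had signals of 6.52, 6.06 and 6.48 in the controls and 6.70, 6.53 and 6.57 with C3a. For Ndufs7 the 3 C3a arrays all lay above the 3 controls, with a gap of 0.013 log2 units between control 1 and C3a 2. The median difference of the 6 core subunits was 0.11, with 5 of 6 above 0, and it was 0.026 without control 2.

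Accessory subunits surround the core and are needed for assembly and stability. In the NDUFA and NDUFS group, Ndufa5, a subunit of the peripheral arm, had signals of 8.80, 8.39 and 8.81 in the controls and 9.04, 8.85 and 8.89 with C3a. All 3 C3a arrays lay above all 3 controls. The means were 8.67 ± 0.24 (SD, n = 3) and 8.93 ± 0.097 (SD, n = 3), and the difference was 0.26 (standard error 0.14, 1.20-fold, adjusted p = 0.742 from limma), or 0.12 without control 2. The other members with a bright probe were Ndufa6, at 7.64 to 8.14, Ndufa7, at 7.80 to 8.41, and Ndufa9, at 5.02 to 5.46, which lies near the junction of the arms. Ndufs4, whose loss is known to impair complex I in mice, and Ndufa10, an accessory subunit of the membrane arm, had dim probes. Ndufs4 gave -2.77, -1.94 and -2.91 in the controls and -2.90, -2.55 and -2.92 with C3a, so that control 2 stood above the other 5 arrays. Ndufa10 gave -1.12, -0.83 and -1.17 in the controls and -1.36, -0.92 and -1.12 with C3a, again with control 2 the highest. The median difference of the 6 measured genes was 0.093, with 4 of 6 above 0, and it was 0.038 without control 2.

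The NDUFB subunits sit in the membrane arm, which pumps protons. Ndufb9 had signals of 8.43, 8.06 and 8.45 in the controls and 8.68, 8.52 and 8.53 with C3a, and the groups did not overlap. Its means were 8.31 ± 0.22 (SD, n = 3) and 8.58 ± 0.090 (SD, n = 3), with a difference of 0.26 (standard error 0.13, 1.20-fold, adjusted p = 0.742 from limma), or 0.14 without control 2. Ndufb8, a subunit often used to follow complex I on blots, had signals of 9.14, 8.71 and 9.06 in the controls and 9.33, 9.14 and 9.16 with C3a. The lowest C3a array of Ndufb8 lay 0.0029 log2 units above the highest control. The means were 8.97 ± 0.23 (SD, n = 3) and 9.21 ± 0.10 (SD, n = 3), with a difference of 0.24 (standard error 0.14, 1.18-fold, adjusted p = 0.742 from limma), or 0.11 without control 2. The remaining members ran from 6.16 to 6.80 for Ndufb10, 7.41 to 8.05 for Ndufb3, 7.26 to 7.74 for Ndufb5 and 6.41 to 6.76 for Ndufb6. The median difference of the 6 genes was 0.19, with 6 of 6 above 0, and it was 0.048 without control 2. After quantile normalization it was 0.017.

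Complex II, succinate dehydrogenase, also works in the citric acid cycle and is made entirely from nuclear genes. Sdha, the flavoprotein, gave signals of 6.22 to 6.42, and Sdhb, the iron-sulfur subunit, gave 5.79 to 6.17. The membrane anchors gave 4.73 to 4.94 for Sdhc and 6.77 to 7.03 for Sdhd. The median difference of the 4 genes was 0.058 and the groups overlapped for each of them. It was -0.0049 without control 2 and -0.050 after quantile normalization.

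In complex III, the core proteins gave signals of 5.60 to 6.06 for Uqcrc1 and 5.15 to 5.54 for Uqcrc2. Uqcrfs1, the Rieske iron-sulfur protein, gave 6.38 to 6.60, and Cyc1, the haem protein that passes electrons to cytochrome c, gave 7.86 to 8.24. The small subunits gave 7.06 to 7.74 for Uqcrb and 8.20 to 8.83 for Uqcrq. The median difference of the 6 genes was 0.075, with 4 of 6 above 0, and the groups overlapped for each of them. It was 0.025 without control 2 and -0.082 after quantile normalization. Cycs, cytochrome c itself, gave signals of 6.45, 6.32 and 6.34 in the controls and 6.58, 6.43 and 6.19 with C3a. Its difference was 0.028, with the C3a arrays on both sides of the controls.

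Complex IV had the highest median difference of the complexes, 0.23 over 11 genes, with all 11 above 0 and a range of 0.18 to 0.34. The difference between complexes was not tested. Without control 2 the median was 0.074, and after quantile normalization it was 0.025. The median signal of its probes was 9.03, and the part of probe brightness in the difference was not tested.

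Cox6c, a small membrane subunit, had the smallest unadjusted p of the set. Its signals were 9.28, 8.83 and 9.28 in the controls and 9.58, 9.36 and 9.46 with C3a, and the groups did not overlap. The means were 9.13 ± 0.26 (SD, n = 3) and 9.47 ± 0.11 (SD, n = 3). The difference was 0.34 (standard error 0.15, 1.26-fold), with an unadjusted p of 0.0568 and an adjusted p of 0.742 from limma. It was 0.19 without control 2, 0.13 after quantile normalization and -0.13 with scaling to the spike-in probes.

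Cox6a2, the form of subunit VIa found in heart and skeletal muscle, had signals of 9.59, 9.04 and 9.47 in the controls and 9.75, 9.53 and 9.65 with C3a. The groups overlapped, since control 1 lay above C3a 2. The means were 9.37 ± 0.29 (SD, n = 3) and 9.64 ± 0.11 (SD, n = 3), with a difference of 0.28 (standard error 0.16, 1.21-fold, adjusted p = 0.742 from limma), or 0.11 without control 2. Ndufa4, first assigned to complex I and now counted with complex IV, had signals of 7.94, 7.57 and 7.88 in the controls and 8.19, 7.97 and 7.94 with C3a. The lowest C3a array of Ndufa4 lay 0.0012 log2 units above the highest control. The means were 7.80 ± 0.20 (SD, n = 3) and 8.03 ± 0.14 (SD, n = 3), with a difference of 0.24 (standard error 0.13, 1.18-fold, adjusted p = 0.742 from limma), or 0.12 without control 2 and 0.16 without C3a 1. Cox4i1, a regulatory subunit that binds nucleotides, gave 9.13, 8.72 and 9.09 in the controls and 9.30, 9.16 and 9.18 with C3a, without overlap. Cox5b gave 8.74, 8.20 and 8.68 in the controls and 8.94, 8.68 and 8.85 with C3a, where control 1 lay above C3a 2.

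In the remaining complex IV genes, Cox5a faces the matrix like Cox5b, Cox6b1 faces the space between the membranes, and the others span the inner membrane. They had signals of 7.37 to 7.96 for Cox5a, 1.29 to 1.96 for Cox6b1, 7.41 to 8.06 for Cox7b, 8.59 to 9.25 for Cox8a, 8.72 to 9.37 for Cox6a1 and 8.76 to 9.42 for Cox7a2. Each of these 6 genes was lowest on control 2 and highest on C3a 1, and the groups overlapped for each.

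Over the whole set, the C3a arrays were above every control in 7 of 40 genes, 17.5%, against 8.15% of all genes with a kept probe. Named once the values were known, they were Ndufs7, Ndufa5, Ndufb8, Ndufb9, Ndufa4, Cox4i1 and Cox6c. With 3 against 3 arrays no single gene can go below p = 0.1 in a two-sided exact permutation test, and groups that do not overlap always give that value. In the brightest 10%, all 3 lay above the controls for 7 of 36 respiratory chain genes (19.4%) and 130 of the other 1003 (13.0%). In the brightest 2% this held for 6 of 21 respiratory chain genes (28.6%) and 29 of the other 187 (15.5%). All 3 C3a arrays lay below the controls for 0 of 40 genes, against 4.84% of all genes. In the brightest 10% they lay below for 0 of the 36 respiratory chain genes and 1 of the other 1003. These shares were not tested.

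The replicate numbers were used as pairs, since same-numbered arrays moved together across probes. The number is also the place of the array along the slide, so that a pairing of the samples and a shared place cannot be told apart. With the number as a replicate block, 3 of 40 genes had an unadjusted p under 0.05, where 11.9% of all genes did. All 3 had a higher mean with C3a, where 5.81% of all genes were higher and 6.05% lower at that threshold. They were Cox6c, Cox5b and Cox6a2, with adjusted p of 0.294, 0.338 and 0.358 from limma with the block. By pair, the median difference was 0.15 for the first number, 0.36 for the second and -0.022 for the third, with 36, 35 and 16 of the 40 genes above 0. The shares of all genes above 0 were 59.4%, 63.2% and 44.7%. In all 3 pairs, 14 of 40 genes (35.0%) lay above 0, against 23.6% of all genes, and 1 gene, Ndufs4, lay below, against 15.1%. In the brightest 10%, 14 of the 36 respiratory chain genes (38.9%) lay above 0 in all 3 pairs, against 40.8% of the other genes. There, 0 of the 36 lay below 0 in all 3 pairs, against 1.99% of the other genes.

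Most of the genes were low and high on the same arrays. Control 2 was the lowest of the 6 arrays for 31 of 40 genes (77.5%), and C3a 1 was the highest for 35 of 40 (87.5%). Among the other 1003 genes in the brightest 10%, control 2 was the lowest for 75.2% and C3a 1 the highest for 77.5%. The median signal of the 40 genes was 7.49, 7.16 and 7.48 on the controls and 7.70, 7.53 and 7.44 with C3a, so that C3a 3 lay below control 1 and control 3. For complex IV the medians were 9.09, 8.59 and 9.08 on the controls and 9.25, 9.04 and 9.12 with C3a. Ndufs4, Ndufa10 and Uqcrc2, named after their values were seen, were highest on control 2. Without control 2 the median difference of the set was 0.043, with 34 of 40 above 0, and the median of all kept probes was 0.019. Without C3a 1 it was 0.097, with 31 of 40 above 0, and with each of the other arrays left out it was between 0.19 and 0.24.

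**Figure D2:**
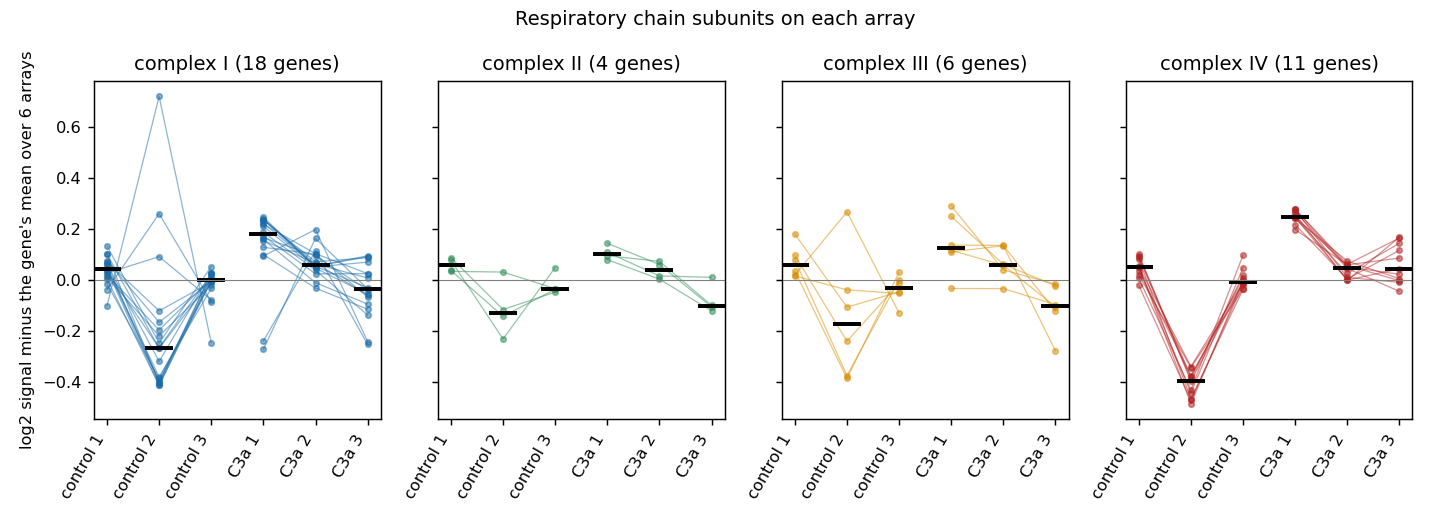
Signal of each gene on each of the 6 arrays, as log2 minus the mean of that gene over the arrays, with 1 line per gene and 1 panel per complex (cytochrome c is not drawn). Black bars are the medians of the panel, and control 2 lies lowest for all 11 complex IV genes. The gene with the highest point on control 2 is Ndufs4.

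**Figure D3:**
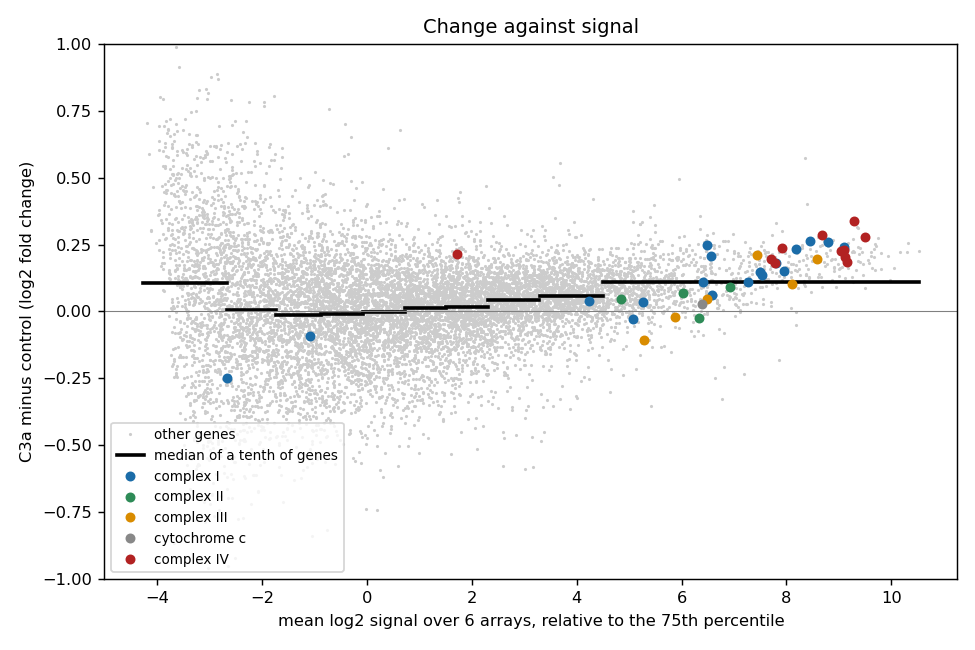
Difference between C3a and control against mean signal, both in log2 units, for the respiratory chain genes in colour and the other genes with a kept probe in grey. Black lines are the medians of 10 equal groups of genes by signal, and 36 of the 40 coloured points lie in the brightest group, whose other genes had a median of 0.11. A few grey points lie outside the drawn range of -1 to 1.

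Set beside genes of equal signal, the set differed less from the rest. All genes were split by signal into 10 equal groups. The median difference was 0.11 in the dimmest group and between -0.014 and 0.018 in groups 2 to 7. It was 0.042 in group 8, 0.056 in group 9 and 0.11 in the brightest. In that order, 69.1%, 77.5% and 89.9% of their genes lay above 0. More probes passed the filter with C3a (23425) than in the controls (17519), and the part of this in the dimmest group was not tested. The other 1003 genes of the brightest group had a median difference of 0.11, with 902 above 0, and the 36 respiratory chain genes in it had 0.18, with 32 above 0. In the brightest 2% of genes, the 21 respiratory chain genes had a median of 0.21, with 21 above 0, and the other 187 genes had 0.18, with 184 above 0. Gene by gene, 24 of 40 lay above the median of the other genes in their own group, and the median gap was 0.055. Within the set the difference went with the signal (Pearson r = 0.77 over 40 genes that share the same 6 arrays), and r was 0.36 over the other genes of the brightest group.

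**Figure D4:**
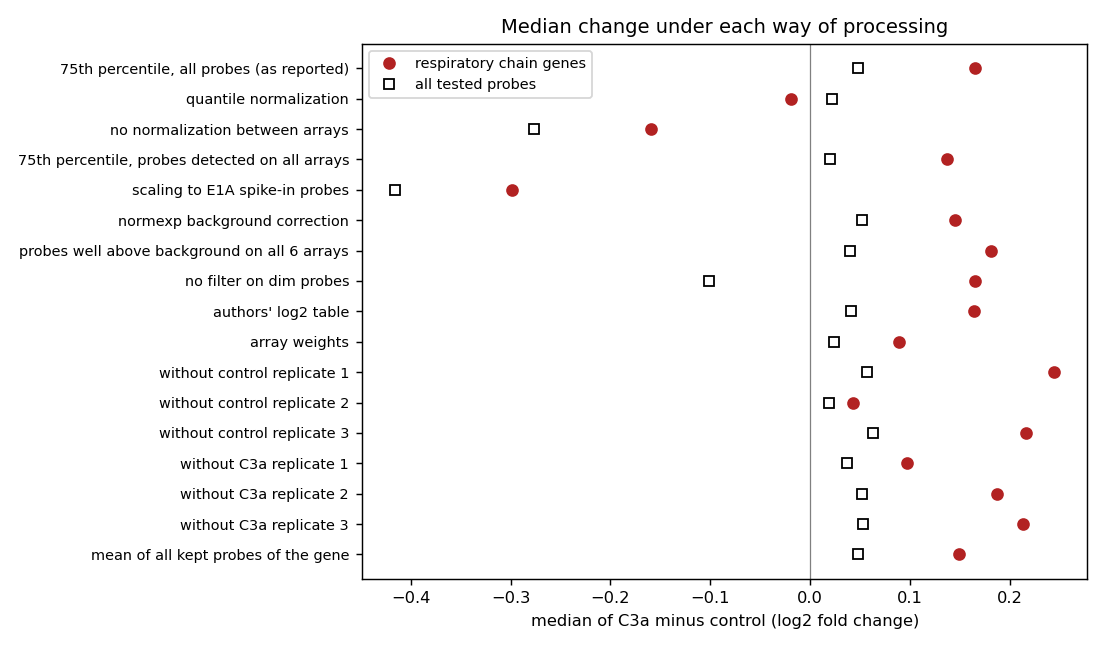
Median difference between C3a and control on the log2 scale under each way of processing, for the respiratory chain genes (red circles) and all tested probes (open squares). The median of the set runs from -0.30 with spike-in scaling to 0.24 without control replicate 1, and among the settings drawn it lies below the median of all probes only after quantile normalization.

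Several subunits exist in a form for heart and muscle and a more general form. For subunit VIa the difference was 0.28 for Cox6a2 and 0.20 for the general form Cox6a1 (standard errors 0.16 and 0.15). For subunit VIII, Cox8b gave 8.38, 7.84 and 8.31 in the controls and 8.56, 8.35 and 8.35 with C3a, a difference of 0.24 (standard error 0.16), beside 0.23 for Cox8a. For subunit IV, Cox4i2, a form linked to low oxygen, gave 2.66, 2.01 and 2.46 in the controls and 2.76, 2.53 and 2.21 with C3a. Its difference was 0.12 (standard error 0.21), beside 0.23 for Cox4i1, and it was -0.061 without control 2 and -0.0066 without C3a 1. Without control 2 the difference was 0.11 for Cox6a2, 0.056 for Cox6a1, 0.070 for Cox8b, 0.063 for Cox8a and 0.10 for Cox4i1, and without C3a 1 it was 0.13 for Cox6a1. Ndufa4l2, the relative of Ndufa4 that rises in low oxygen, was not well above background with either of its probes on any of the 6 arrays. Cox7a1, the muscle form beside Cox7a2, had no matched probe. Differences between the forms were not tested. Probe sequences were not used here, so that hybridisation of a probe to a related form or a near-identical copy was not tested.

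For 9 of the genes a further probe was kept. Both probes gave a difference above 0 for 9 of 9 genes, and the probes of a gene differed by at most 0.093, in Uqcrq. The probes of Cox6c gave 0.34 and 0.32, and those of Cox6a2 gave 0.28 and 0.29. With the mean of all kept probes of a gene in place of the brightest, the median of the set was 0.15.

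Other genes of the pathway were measured on the same arrays. Of 26 further nuclear subunits of complexes I, III and IV, 22 were kept, 22 of 22 lay above 0 with a median of 0.18, and 0 had an unadjusted p under 0.05. Of 16 ATP synthase genes, 15 were kept, 13 lay above 0 and the median was 0.20. All 15 were also among the brightest 10% of genes. Of the 15, 1 gene had an unadjusted p under 0.05, where 5.35% of all genes did, 2.93% higher and 2.43% lower. This gene was Atp5pd, a subunit of the peripheral stalk, with 7.79, 7.36 and 7.77 in the controls and 8.04, 7.88 and 8.00 with C3a. Its difference was 0.33 (unadjusted p = 0.0484, adjusted p = 0.742 from limma), or 0.19 with control 2 left out. A further Atp5pd probe gave 0.24. With scaling to the spike-in probes the difference of Atp5pd was -0.13. Over the 15 ATP synthase genes the differences ranged from -0.33 to 0.33. The lowest was that of Atp5f1b, named after its value was seen, with an unadjusted p of 0.119 from limma. With the replicate block, 2 of the 15 were higher and 1 lower at an unadjusted p under 0.05, where 5.81% and 6.05% of all genes were.

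Assembly factors build the complexes without being part of them. Of 43, 34 were kept, 23 lay above 0 and the median was 0.047. At an unadjusted p under 0.05, 2 were higher and 1 was lower with C3a, where 2.93% and 2.43% of all genes were, and 0 passed after adjustment. Cox19, a copper-related factor of complex IV, had a difference of 0.31 (adjusted p = 0.742 from limma). Its probe was detected on 2 of 3 control arrays and passed the filter through the C3a arrays, where it was higher, so that its place in this count is no support for a difference. Coa5, also of complex IV, had a difference of 0.36 (unadjusted p = 0.0406, adjusted p = 0.742 from limma) with its brightest probe, and its other probes gave -0.65 and 0.19. Ndufaf7, a methyltransferase that acts on complex I, had a difference of -0.29 (unadjusted p = 0.0482, adjusted p = 0.742 from limma), and its other probe gave 0.15. Without normalization between arrays the difference of Cox19 was -0.012, and with scaling to the spike-in probes it was -0.15 for Cox19 and -0.10 for Coa5.

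Regulators of mitochondrial biogenesis and the citric acid cycle had medians nearer 0 than the subunits, a difference that was not tested. Of 18 regulators, 16 were kept, 9 lay above 0 and the median was 0.0069. Of the 16, 0 had an unadjusted p under 0.05, where 5.35% of all genes did. The median signal of the regulators was 0.66, in the range where the median difference of other genes was near 0. Of 12 citric acid cycle genes, 12 were kept, 5 lay above 0 and the median was -0.018. Of the 12, 0 had an unadjusted p under 0.05, beside the same 5.35% of all genes. The citric acid cycle genes had a median signal of 4.62, and 7 of the 12 were among the brightest 10% of genes. The 13 subunits encoded in mitochondrial DNA were not matched to a probe and were not analysed here. Among the markers of other cells, Lum, a fibroblast matrix gene named after its value was seen, had a difference of -0.54 (unadjusted p = 0.0369, adjusted p = 0.742 from limma), from a probe well above background on 2 of 3 control arrays. Lum was the 1 of 9 fibroblast markers at an unadjusted p under 0.05, where 5.35% of all genes passed. The 2 fibroblast markers among the brightest 10% of genes, Col1a1 and Col1a2, gave 0.024 and 0.011. The median difference was -0.050 for 9 fibroblast, 0.10 for 6 endothelial, 0.070 for 4 macrophage and -0.068 for 5 smooth muscle markers. For the 18 cardiomyocyte markers it was 0.14, and 16 of these were among the brightest 10%. The part of probe brightness in these medians was not tested.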

How the data were processed

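RNA of 6 NRVC samples, 3 control and 3 C3a, was labelled with Cy3 and measured on SurePrint G3 Rat arrays. For each spot, the intensity deposited is that of Agilent Feature Extraction 11.5.1.1 (per the submitters' processing notes), linear, background-subtracted by the scanner software and not normalized between arrays. A second file of the authors, made with software their methods name as GeneSpring, gives log2 values of 36638 probes. Against the scanner values these are log2 signals scaled to the 75th percentile, uncentred, with a median absolute difference of at most 0.0058 and column medians of -3.13 to -3.00. Samples were grouped by the titles in their records.

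Control spots (4259 of 62976) and outlier spots were left out, no spot was saturated, and spots of a probe were averaged, which gave 45598 probes. An accession in the gene table of GRCr8 named 21109 of them (46.3%). The test was run on 23438 probes, each detected above background on every array of a group (17519 in the controls, 23425 with C3a). The higher background on control 1 removes dim probes seen in the controls only. C3a and control were compared with limma 3.58.1 in R 4.3.3 (two-sided), adjusted by Benjamini-Hochberg over the kept probes. The step was tested on simulated data. No p was computed over the set of genes.

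The members and lists were chosen with earlier results of these data known. Full statistics were given for the 6 members with the smallest unadjusted p, since none was under 0.05. Other members are given by range. The isoform pairs, and list genes at an unadjusted p under 0.05, are also named. Further genes are said to have been named after their values were seen, and the per-array values of Cox4i1, Cox5b, Ndufs7, Ndufs4, Ndufa10 and Cycs were also chosen so. The pairing by replicate number comes from the data, as arrays of the same number deviated together over the kept probes (r = 0.28, 0.32 and 0.31, against -0.26 to -0.093 for different numbers). Each probe was first centred on its group mean. An r above 0 for the same number then lowers r for different numbers, which are therefore no separate contrast. Alternatives were other scalings, normexp background correction (offset 50, on the median spot signal), other filters on dim probes, the authors' table, the replicate block, other estimates of spread, the methods' test, the mean of all probes of a gene and each array left out in turn. Slide and scan gave no block, with 1 slide.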

Additional observations from a re-analysis of the deposited data

How the results depend on the processing

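The count of genes of the set past an adjusted p of 0.05 was 0 under every alternative run, and 0 passed the methods' test without adjustment. The direction did not hold across scalings, and the cause was not tested. Scaled to the E1A spike-in probes, 1 probe was called higher and 10 lower, 9 and 1567 at an unadjusted p under 0.05, and 0 of 40 genes lay above 0. The median was then -0.30 for the set, -0.35 for the core of complex I, -0.37 for its NDUFA and NDUFS group, -0.27 for NDUFB, -0.41 for complex II, -0.39 for complex III, -0.44 for cytochrome c and -0.24 for complex IV. Single genes under that scaling gave -0.13 for Cox6c, -0.20 for Ndufb9, -0.20 for Ndufa5, -0.23 for Ndufa4, -0.22 for Ndufb8, -0.19 for Cox6a2, -0.26 for Cox6a1, -0.28 for Cox7a2, -0.24 for Cox8a, -0.23 for Cox4i1, -0.22 for Ndufs7, -0.18 for Cox5b, -0.23 for Cox8b, -0.34 for Cox4i2, -0.13 for Atp5pd, -0.15 for Cox19 and -0.10 for Coa5. Without normalization between arrays, 4 probes were called lower, 41 were higher and 2556 lower at an unadjusted p under 0.05, and 1 of 40 genes lay above 0. The medians in the same order were -0.16, -0.22, -0.23, -0.13, -0.27, -0.25, -0.30 and -0.099. Single genes gave -0.061 for Ndufb9, -0.064 for Ndufa5, -0.090 for Ndufa4, -0.085 for Ndufb8, -0.048 for Cox6a2, -0.12 for Cox6a1, -0.14 for Cox7a2, -0.099 for Cox8a, -0.095 for Cox4i1, -0.078 for Ndufs7, -0.040 for Cox5b, -0.088 for Cox8b, -0.20 for Cox4i2 and -0.012 for Cox19. After quantile normalization 18 of 40 genes lay above 0, with medians of -0.019 for the set, -0.026 for the core of complex I, -0.054 for NDUFA and NDUFS, -0.050 for complex II, -0.082 for complex III and -0.12 for cytochrome c, and with -0.0017 for Cox6a1 and -0.027 for Cox7a2.

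The number of probes at an unadjusted p under 0.05 was 788 higher and 580 lower as reported. The methods' test gave 754 and 357. A filter on detection on every array gave 371 higher and 639 lower, with 1 of 39 genes of the set. Of 8556 genes, 164 were then higher and 281 lower. No filter gave 359 probes higher and 679 lower. Normexp gave 640 higher and 356 lower, with 3 of 40 genes of the set. Of 10390 genes, 251 were then higher and 150 lower. The percentile over probes detected on all arrays gave 567 higher and 726 lower, with 1 of 40 genes of the set. Of 10390 genes, 236 were then higher and 330 lower, and cytochrome c gave -0.00057. With the replicate block, 1832 probes were higher and 1366 lower, with 3 of 40 genes of the set, where 11.9% of all genes passed. The block changed no call after adjustment. The mean of all probes turned Coa5 to -0.033. Array weights gave a median of 0.089 with 39 of 40 genes above 0.

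With 1 array left out in turn, the median ranged from 0.043 to 0.24 for the set, 0.026 to 0.17 for the core of complex I, 0.038 to 0.17 for NDUFA and NDUFS, 0.048 to 0.28 for NDUFB, -0.0049 to 0.11 for complex II, 0.025 to 0.15 for complex III, -0.060 to 0.13 for cytochrome c and 0.074 to 0.31 for complex IV. The genes of the set above 0 ranged from 31 to 37, and those at an unadjusted p under 0.05 from 0 to 2 (Cox6c and Cox6a2, without control 1). Without control 1, 312 of 10390 genes were higher and 260 lower at that threshold. The probes higher at that threshold ranged from 441 to 1269 and those lower from 269 to 876. Cox4i2 ranged from -0.061 to 0.27, and Cox7a2 from 0.038, without control 2, to 0.28.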
